A study of Homo sapiens with 6 samples.

Results

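The genes described here are 10 inhibitors that MAP kinase signalling induces or acts through to restrain itself: the phosphatases DUSP1, DUSP4, DUSP5, DUSP6, DUSP7 and DUSP10, the Sprouty proteins SPRY2 and SPRY4, and the Spred proteins SPRED1 and SPRED2. They were taken by symbol from a deposited table of 60612 rows and 50229 gene symbols. Each symbol matched a row, and where rows shared a symbol the one with the highest mean FPKM (a level scaled for transcript length and library size) was kept. Poly(A) RNA was sequenced from 3 libraries with knockdown of EIF4G2 by siRNA (siEIF4G2) and from 3 with a control siRNA (siNC), both siRNAs at 50 nM. EIF4G2, also known as DAP5, is an eIF4G-family factor used in cap-independent and other non-canonical translation. All 6 libraries are labelled as Hep3B, a human hepatocellular carcinoma line, and the labels name no other treatment and no separate cultures, so each p-value rests on how far the libraries of a group lay apart, and that spread may be technical.

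MAP kinase pathways carry signals from growth factor receptors and from stress to the nucleus through RAS, RAF, MEK and ERK, or through the parallel JNK and p38 kinases. The dual-specificity phosphatases remove phosphate from both the threonine and the tyrosine that activate a MAP kinase. DUSP1, DUSP4 and DUSP5 are nuclear, DUSP6 and DUSP7 are cytoplasmic and act on ERK, and DUSP10 acts on JNK and p38. Sprouty and Spred proteins act further upstream, between the receptor and RAF, and Spred proteins bring the RAS inhibitor neurofibromin to the membrane. Transcription of several of these genes is switched on by ERK itself, which makes them a readout of the pathway as well as its brake. RNA levels do not show the activity of the kinases or the amount of the proteins.

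Promoters are shown for 4 members, a phosphatase that was lower at a high level (DUSP1), a phosphatase that was low throughout (DUSP6), and the Sprouty genes SPRY4, which was lower, and SPRY2, which was not called. The sequences are from RefSeq on GRCh38.p14 and run 5′ to 3′ over the 250 bases before a start site, all on the minus strand. They lie at chr5:172771196-172771445 for DUSP1, chr12:89352502-89352751 for DUSP6, chr5:142324248-142324497 for SPRY4 and chr13:80341127-80341376 for SPRY2. Capitals mark matches on either strand to the motifs listed after them.
DUSP1: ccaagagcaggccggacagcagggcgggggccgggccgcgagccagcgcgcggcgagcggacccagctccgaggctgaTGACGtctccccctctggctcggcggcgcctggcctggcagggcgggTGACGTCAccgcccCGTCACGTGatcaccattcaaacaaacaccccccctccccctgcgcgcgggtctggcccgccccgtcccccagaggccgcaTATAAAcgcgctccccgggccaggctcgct
DUSP6: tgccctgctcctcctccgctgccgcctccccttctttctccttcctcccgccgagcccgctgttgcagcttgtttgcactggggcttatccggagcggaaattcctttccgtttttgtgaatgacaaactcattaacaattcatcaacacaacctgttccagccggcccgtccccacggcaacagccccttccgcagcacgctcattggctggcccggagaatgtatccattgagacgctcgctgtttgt
SPRY4: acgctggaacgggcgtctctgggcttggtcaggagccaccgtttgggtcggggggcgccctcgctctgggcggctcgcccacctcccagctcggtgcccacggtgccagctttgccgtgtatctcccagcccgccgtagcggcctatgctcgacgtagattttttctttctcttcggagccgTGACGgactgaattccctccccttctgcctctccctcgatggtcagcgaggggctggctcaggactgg
SPRY2: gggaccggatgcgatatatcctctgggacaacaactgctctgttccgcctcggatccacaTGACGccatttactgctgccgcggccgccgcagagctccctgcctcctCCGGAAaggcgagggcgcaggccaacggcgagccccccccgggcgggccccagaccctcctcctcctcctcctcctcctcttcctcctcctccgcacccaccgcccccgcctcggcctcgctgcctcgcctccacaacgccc

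The motifs searched were the cyclic AMP response element TGACGTCA, its core TGACG (which lies inside it), the AP-1 site TGANTCA, the E-box CACGTG, the ETS core CCGGAA, the TATA box TATAAA and the CArG box of SRF. RefSeq windows were found for 8 members, 12 windows of 300 bases in all, and DUSP4 and DUSP5 had none. Members are annotated on 9 chromosomes. In DUSP1 the full TGACGTCA begins 125 bases before the start site, and 1.85% of all 35116 windows hold it. DUSP1 has a further TGACG at -172, one on the opposite strand at -111, a CACGTG at -108 (7.26% of windows) and a TATAAA at -30 (11.5%). SPRY4 has a TGACG at -68, and SPRY2 has one at -190 with a CCGGAA at -142. The share of all windows with TGACG was 24.6%, and with CCGGAA 17.2%. None of these motifs occurs in the DUSP6 window, and TGANTCA was found in 1 SPRED2 window alone (7.71% of all windows). TGACG was found in 5 of the 12 member windows, which belong to 5 of the 8 members. No member window held a CArG box, and 1.29% of all windows do. For 7 of the 8 members, 1 window starts at the 5′ end of the deposited gene interval. The SPRY4 start site lies 2208 bases inside the deposited interval.

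EIF4G2 itself was 5.41-fold lower after its knockdown (log2 fold change -2.43, SE 0.09; edgeR quasi-likelihood test, Benjamini-Hochberg adjusted p = 0.000207). CTR9, on the other strand, shares 4576 bases with EIF4G2 and had 5144 to 6098 counts in a library. EIF4G2 had 11823 to 13241 counts in siEIF4G2 and 61144 to 75581 in siNC. Whether strand was used in counting is not given. Total counts lay between 63351653 and 72863628 per library. The Hep3B label was checked on 10 hepatocyte markers, which went against it. Of these, 7 had 0 counts in every library, namely GPC3, FGB, TTR, APOB, APOA1, AFP and ALB, and the summed level of the 10 was 0.124 to 0.363 CPM (counts scaled for library size, with edgeR's TMM factors) in siEIF4G2 and 0.0597 to 0.184 in siNC. Counting error alone lets a gene with 0 counts have up to 3, which is 0.0412 to 0.0474 CPM. The 5 epithelial markers summed to 1977 to 2221 CPM in siEIF4G2 and 2270 to 2324 in siNC, nearly all of it from KRT8 and KRT18. Over the 6 libraries EPCAM read 0 to 0.0568 CPM, CDH1 0.142 to 0.452 and KRT19 0.497 to 0.881. The 7 fibroblast markers, led by COL3A1 and LUM, summed to 622 to 660 CPM in siEIF4G2 and 534 to 561 in siNC, but went both ways: COL3A1, LUM and DCN were called higher, and COL1A1 and PDGFRB lower. The fibroblast markers COL1A2 and THY1 were near 0 over the 6 libraries, at 0.426 to 1.67 and 0.395 to 1.18 CPM. The 5 endothelial markers summed to 3.33 to 4.12 against 10.2 to 10.9 CPM, CDH5 being the highest. The 5 immune markers summed to 19.4 to 25.1 against 31.5 to 36.9 CPM, with CD68 highest and PTPRC and CD3E among those at 0. The 4 adipocyte markers summed to 0 against 0.184 to 0.209 CPM, with ADIPOQ and LEP at 0; the labels' extraction text also speaks of an adipose type. The part of these marker differences in the results below was not tested, and with bulk RNA fewer cells of a type and less RNA per cell cannot be told apart.

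DUSP1, DUSP4, DUSP5 and SPRY4 were lower in siEIF4G2 than in siNC, by 1.88-fold to 2.59-fold, and the other 6 members did not pass the test. SPRY4 was too low for the filter used for the rest and was tested without one, a choice made after its values were seen. Per-library values are given in the order of replicates 1, 2 and 3. Of the 10 members, 9 passed the filter of at least 0.5 FPKM in at least 3 libraries. Among those 9, 3 were called lower at an edgeR adjusted p below 0.05, 0 were called higher and 6 were not called, while over all 13748 tested genes 17.6% were called lower, 15.9% higher and 66.6% neither. DESeq2 also called 0 members higher. At an unadjusted p below 0.05 the count was 5 of the 9, in either direction. The share of all tested genes at that unadjusted threshold is not given here, so no excess among the members can be read from this count. DUSP6 passed the filter only through its siNC libraries, and SPRY4 was under 0.5 FPKM in each library. With a filter that does not look at the groups, a mean of at least 0.1 FPKM over all 6 libraries, all 10 members were tested, 4 were lower and 0 higher. That filter was added after the data were seen, and with it 13.3% of 17883 genes were lower and 12.2% higher.

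**Figure D1:**
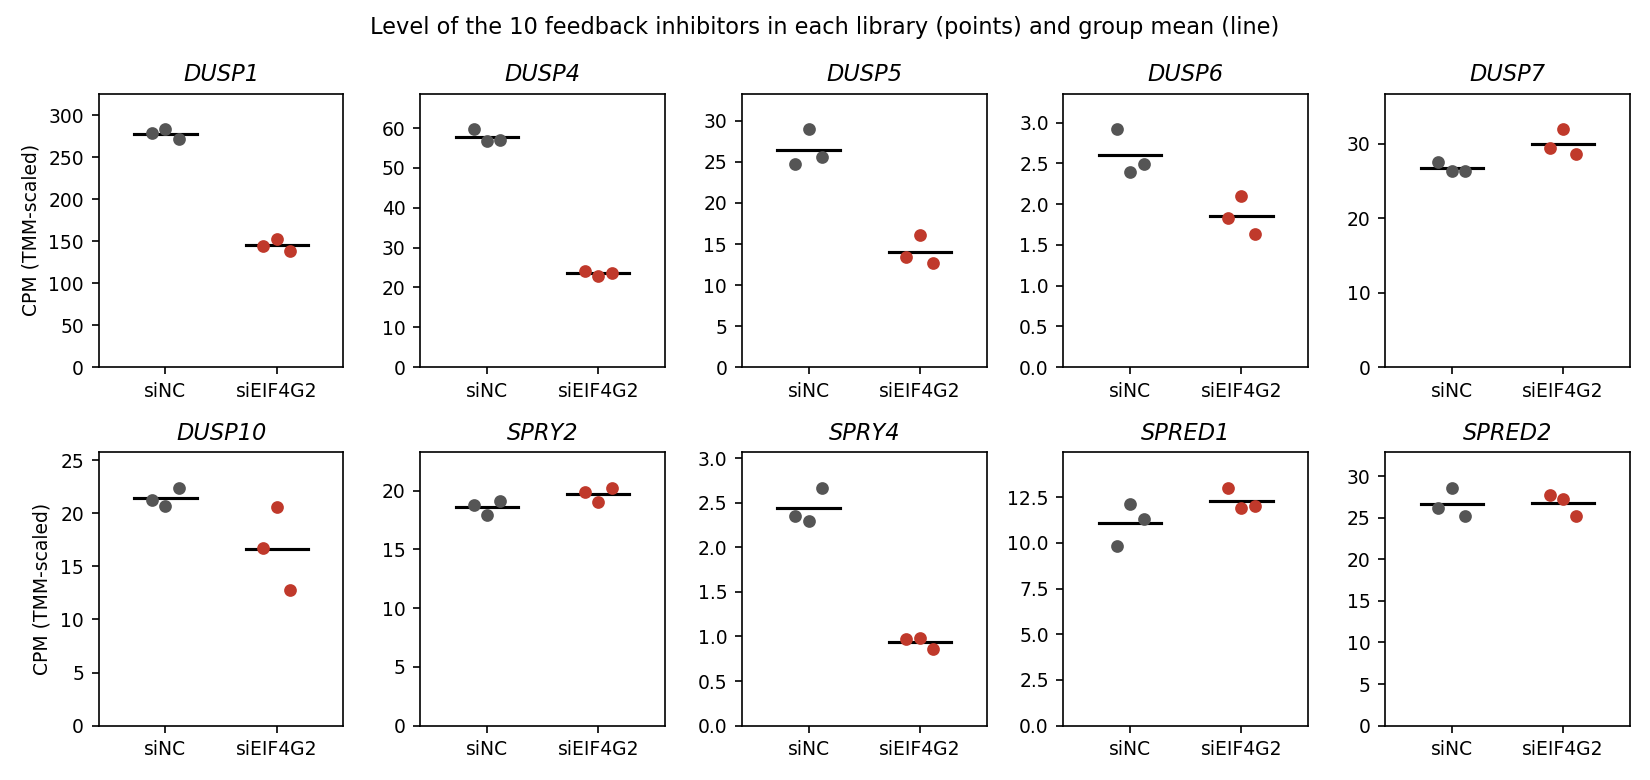
Level of each of the 10 members in CPM (vertical axes, linear, from 0, a separate scale per gene) in the 3 siNC libraries (grey) and the 3 siEIF4G2 libraries (red), with a line at each group mean. The groups are well apart for DUSP1, DUSP4, DUSP5 and SPRY4, and they overlap for SPRY2, SPRED1 and SPRED2.

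DUSP1 is an immediate early gene whose product acts on p38, JNK and ERK in the nucleus, and it was the most abundant member. The gene (ENSG00000120129) spans 172768096 to 172771195 of chromosome 5 on the minus strand. Gene coordinates are as deposited, with no build stated, and they were read as GRCh38 from the start sites given above. After knockdown it read 144, 152 and 138 CPM. The siNC libraries read 279, 283 and 272 CPM. All 3 siEIF4G2 libraries lay far under all 3 siNC libraries, and the spread within a group was small beside the gap. The means were 144.8 ± 7.11 and 278 ± 5.60 CPM (SD, n = 3 each). DUSP1 was thus 1.92-fold lower (95% interval 1.77-fold to 2.09-fold; log2 fold change -0.94, SE 0.05; edgeR adjusted p = 0.000263). Among the 13748 tested genes, its log2 fold change ranked 510 from the lowest.

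DUSP4, a nuclear phosphatase of ERK, JNK and p38 and a close relative of DUSP1, differed more. The gene (ENSG00000120875) is on chromosome 8 from 29333064 to 29350684, minus strand. Knockdown libraries held DUSP4 at 24.2, 22.9 and 23.7 CPM. Control libraries held it at 59.7, 56.7 and 56.9 CPM. Replicates of a group were close together, with a coefficient of variation of 2.69% in siEIF4G2 and 2.95% in siNC. DUSP4 was 2.45-fold lower (95% interval 2.24-fold to 2.68-fold; log2 fold change -1.29, SE 0.05; edgeR adjusted p = 0.000207), rank 202 from the lowest. It was the only tested member past 2-fold, and 2.59% of tested genes were called and at least 2-fold lower, with 0.96% at least 2-fold higher. The ratio of DUSP4 to DUSP1 in FPKM was 0.0465, 0.0417 and 0.0474 in siEIF4G2 and 0.0593, 0.0554 and 0.0579 in siNC, so the groups did not overlap. An exact two-sided permutation test of that ratio gave p = 0.1, the smallest that 3 libraries against 3 allow (adjusted p = 0.133 over 4 ratios).

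DUSP5 is a nuclear phosphatase specific to ERK, which it also holds in the nucleus. The gene (ENSG00000138166) is on chromosome 10 from 110497907 to 110511533, plus strand. The values were 13.5, 16.1 and 12.7 CPM with the siRNA against EIF4G2. With the control siRNA they were 24.7, 29.0 and 25.6 CPM. Replicate 2 was the highest in both groups, and the groups did not overlap. DUSP5 was 1.88-fold lower (95% interval 1.54-fold to 2.29-fold; log2 fold change -0.91, SE 0.12; edgeR adjusted p = 0.0028).

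Of the Sprouty genes, SPRY4 was lower and SPRY2 was not called. SPRY4 (ENSG00000187678, chromosome 5 from 142310427 to 142326455, minus strand) is an inhibitor of receptor signalling upstream of RAS and was the least abundant member. Knockdown left 72, 65 and 55 counts, or 0.967, 0.988 and 0.855 CPM. The controls had 161, 154 and 188 counts, or 2.35, 2.30 and 2.67 CPM. Each siEIF4G2 value was under each siNC value by more than the spread within either group. In the fit with no filter on low values SPRY4 was 2.59-fold lower (95% interval 1.94-fold to 3.45-fold; log2 fold change -1.37, SE 0.17; edgeR adjusted p = 0.00398), where 7.9% of 27064 genes were called lower and 6.54% higher. SPRY4-AS1, on the other strand, shares 1163 bases with it and had at most 8 counts in a library.

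SPRY2 (ENSG00000136158, chromosome 13 from 80335976 to 80341126, minus strand), the Sprouty protein best known for blocking signalling downstream of FGF receptors, read 19.9, 19.0 and 20.2 CPM in siEIF4G2 and 18.8, 18.0 and 19.1 CPM in siNC. The groups overlapped. Its log2 fold change was 0.08 with a 95% interval of -0.08 to 0.24 (edgeR adjusted p = 0.388), an interval that does not reach the log2 fold change of SPRY4. The ratio of SPRY4 to SPRY2 in FPKM was 0.0236, 0.0252 and 0.0204 in siEIF4G2 and 0.0608, 0.0626 and 0.0684 in siNC. These ratios did not overlap between the groups (exact permutation p = 0.1, adjusted p = 0.133 over 4 ratios). SPRY1, a further family member named after its values were seen, read 4.03, 3.44 and 0.979 CPM in siEIF4G2 against 3.81, 2.66 and 4.27 CPM in siNC, with 1 siEIF4G2 library well under the others (edgeR adjusted p = 0.642).

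The cytoplasmic ERK phosphatases DUSP6 and DUSP7 pointed in opposite directions, and neither passed. DUSP6 (ENSG00000139318, chromosome 12 from 89347235 to 89352501, minus strand), an ERK-induced gene often used to read ERK activity, was at 1.83, 2.10 and 1.63 CPM in siEIF4G2 and 2.92, 2.39 and 2.497 CPM in siNC. All siEIF4G2 libraries were lower, by a gap smaller than the range of the siNC values. Its log2 fold change was -0.49 (95% interval -0.88 to -0.10, not adjusted for the number of genes) and its edgeR adjusted p was 0.0622. A gene on the other strand, AC024909, shares 1487 bases with DUSP6 and had 42, 16 and 27 counts in siEIF4G2 and 46, 53 and 60 in siNC, against 105 to 200 counts for DUSP6. Whether strand was used in counting is not given, so reads of the 2 genes cannot be told apart there. DUSP7 (ENSG00000164086, chromosome 3 from 52048919 to 52056571, minus strand) read 29.4, 32.0 and 28.7 CPM in siEIF4G2 and 27.6, 26.4 and 26.3 CPM in siNC. It was the only member whose siEIF4G2 values all lay above its siNC values, by a log2 fold change of 0.17 (95% interval 0.01 to 0.33; edgeR adjusted p = 0.102). The ratio of DUSP6 to DUSP7 in FPKM was 0.0908, 0.0956 and 0.0832 in siEIF4G2 and 0.155, 0.132 and 0.139 in siNC, with no overlap (exact permutation p = 0.1, adjusted p = 0.133 over 4 ratios).

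DUSP10 (ENSG00000143507, chromosome 1 from 221701424 to 221742089, minus strand), a phosphatase of JNK and p38, varied most between replicates. It read 16.7, 20.6 and 12.7 CPM in siEIF4G2 and 21.3, 20.7 and 22.4 CPM in siNC. The siEIF4G2 libraries spread widely, with a coefficient of variation of 23.4% against 4.05% in siNC, and the highest of them almost met the lowest siNC library. The log2 fold change was -0.36 (95% interval -0.78 to 0.06; edgeR adjusted p = 0.156). Without siEIF4G2 replicate 2 the log2 fold change of DUSP10 was -0.54 and passed (edgeR adjusted p = 0.0406), so 1 library decides the call.

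The Spred genes did not pass. SPRED1 (ENSG00000166068, chromosome 15 from 38252836 to 38357249, plus strand), the Spred protein mutated in Legius syndrome, was at 13.0, 11.9 and 12.001 CPM in siEIF4G2 and 9.83, 12.2 and 11.3 CPM in siNC. The groups overlapped, with 1 siNC library under the rest (log2 fold change 0.15, 95% interval -0.11 to 0.41; edgeR adjusted p = 0.336). SPRED2 (ENSG00000198369, chromosome 2 from 65310851 to 65432599, minus strand) read 27.8, 27.2 and 25.2 CPM in siEIF4G2 and 26.2, 28.6 and 25.2 CPM in siNC. Its log2 fold change was 0.003, the smallest of the members, with a 95% interval of -0.18 to 0.19 (edgeR adjusted p = 0.98). The ratio of SPRED1 to SPRED2 overlapped between the groups (exact permutation p = 0.2, adjusted p = 0.2 over 4 ratios).

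**Figure D2:**
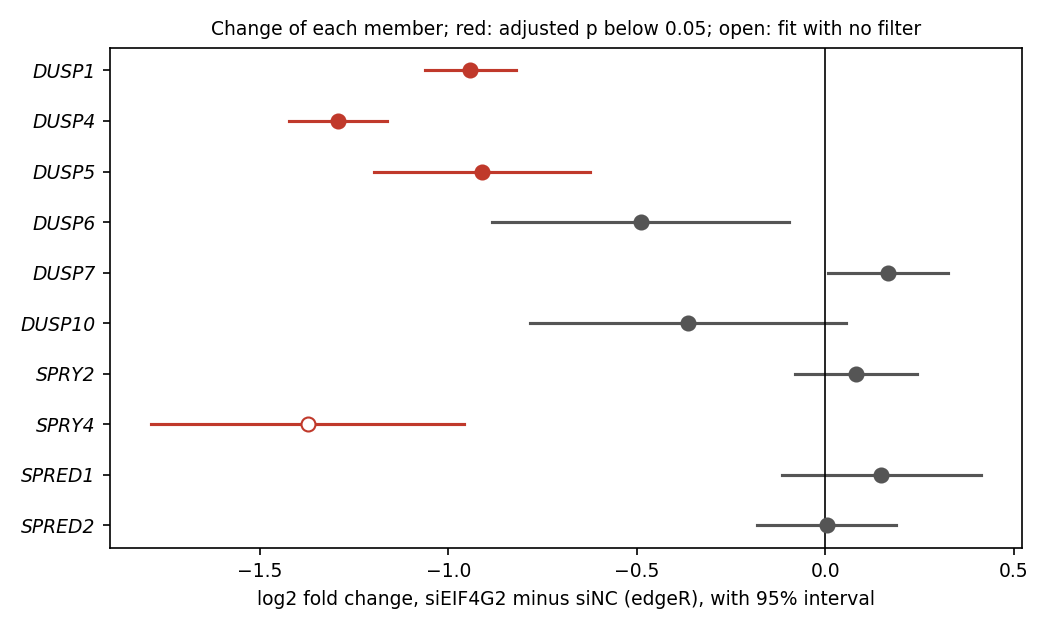
Log2 fold change of each member, siEIF4G2 minus siNC, from edgeR (horizontal axis) with its unadjusted 95% interval as a line. Red marks an adjusted p below 0.05, and the open circle is SPRY4, fitted with no filter; the intervals of DUSP1, DUSP4, DUSP5 and SPRY4 lie wholly under -0.62, while those of SPRY2, SPRED1, SPRED2 and DUSP10 cross 0.

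In all, 6 members had every siEIF4G2 value under every siNC value (DUSP1, DUSP4, DUSP5, DUSP6, DUSP10 and SPRY4), 1 had the reverse and 3 overlapped. SPRY4 is not among the tested genes and DUSP6 is among them only through siNC. Of the 9 tested members 5 were separated downward and 1 upward, and of all tested genes 25.6% and 25.0%. Per transcript length, DUSP1 stood far above the rest at 114.6 ± 2.23 FPKM in siNC (SD, n = 3), followed by DUSP5 at 8.65 ± 0.752, DUSP4 at 6.59 ± 0.172 and DUSP10 at 6.29 ± 0.264 FPKM. Below these came SPRY2 at 4.801 ± 0.154, SPRED2 at 4.01 ± 0.267, DUSP7 at 3.92 ± 0.0886, SPRED1 at 1.19 ± 0.129, DUSP6 at 0.556 ± 0.0594 and SPRY4 at 0.307 ± 0.0267 FPKM. The siNC ranges of DUSP4 and DUSP10 overlapped, as did those of SPRED2 and DUSP7. In siEIF4G2 the FPKM order became DUSP1 (60.7 ± 2.16), SPRY2 (5.18 ± 0.244), DUSP10 (4.97 ± 1.10), DUSP5 (4.68 ± 0.529), DUSP7 (4.47 ± 0.188), SPRED2 (4.09 ± 0.205), DUSP4 (2.74 ± 0.112), SPRED1 (1.34 ± 0.0819), DUSP6 (0.402 ± 0.0443) and SPRY4 (0.119 ± 0.0084). In that order, neighbouring genes from SPRY2 through DUSP7 overlapped in range, while DUSP7 and SPRED2 did not. DUSP4 thus went from near DUSP10 to below SPRED2, outside the range of both.

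The catalytically active MAP kinase phosphatases also include DUSP2, a nuclear enzyme, DUSP9, a cytoplasmic ERK phosphatase, and DUSP8 and DUSP16, which act on JNK and p38. All 4 were tested, with 1 called lower and 1 higher, or 25% each, beside 17.6% and 15.9% of all tested genes. DUSP8 read 8.30, 8.97 and 7.87 CPM in siEIF4G2 and 13.1, 12.9 and 13.2 CPM in siNC (log2 fold change -0.64, SE 0.09; edgeR adjusted p = 0.00344). DUSP9 read 10.2, 11.8 and 9.13 CPM in siEIF4G2 and 6.64, 6.27 and 5.45 CPM in siNC (log2 fold change 0.76, SE 0.14; edgeR adjusted p = 0.00848). Both sets of values were separated by group. The log2 fold changes of DUSP2 and DUSP16 were 0.01 (95% interval -0.30 to 0.33) and -0.08 (95% interval -0.20 to 0.04).

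Added over these 10 phosphatases, FPKM summed to 100.3, 103.9 and 94.6 after knockdown. In the controls the sum was 161.6, 165 and 159 FPKM. DUSP1 made up 60.4% to 61.8% of the sum in siEIF4G2 and 70.6% to 70.8% in siNC. Without DUSP1, the other 9 summed to 36.2 to 41.1 FPKM in siEIF4G2 and 46.8 to 48.2 in siNC. The nuclear enzymes DUSP1, DUSP2, DUSP4 and DUSP5 summed to 72.6 ± 2.93 against 134 ± 3.25 FPKM. The cytoplasmic ERK phosphatases DUSP6, DUSP7 and DUSP9 summed to 8.02 ± 0.589 against 6.30 ± 0.297 FPKM. The enzymes acting on JNK and p38 summed to 19.0 ± 1.32 against 21.5 ± 0.370 FPKM (SD, n = 3 per group). These sums are descriptions of genes chosen with their values known, and no test was made of them.

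**Figure D3:**
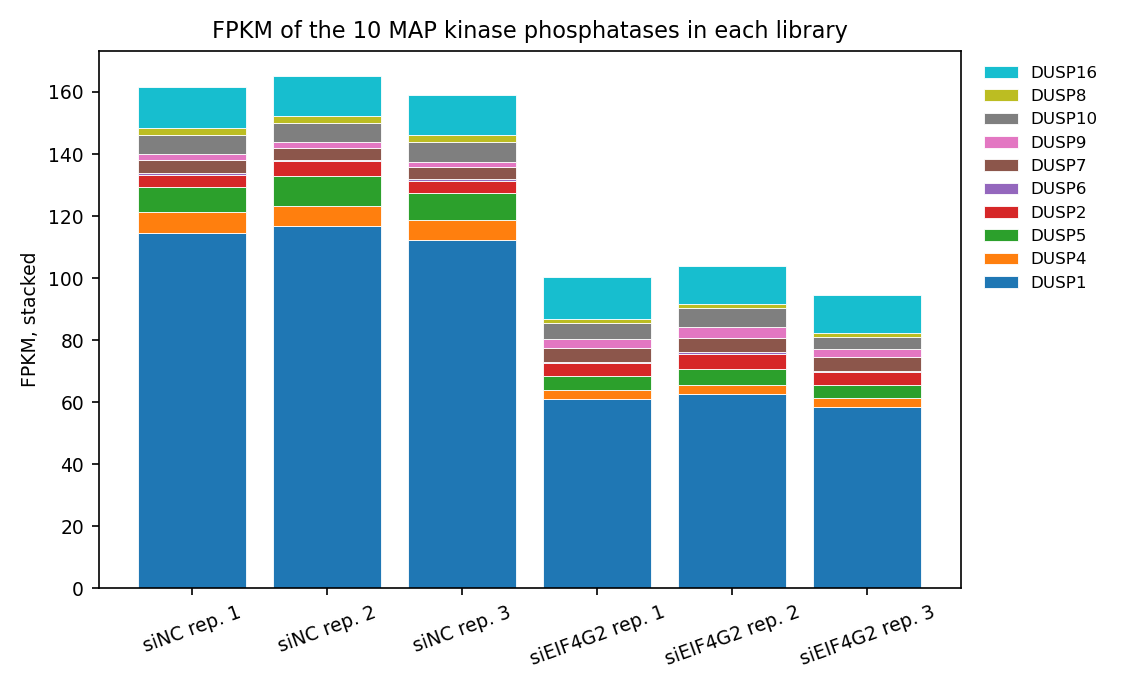
FPKM of the 10 MAP kinase phosphatases, stacked, in each library (vertical axis, linear, from 0). The siEIF4G2 bars end between 94.6 and 103.9 FPKM and the siNC bars between 159 and 165, and DUSP1 at the base is the largest layer in every library.

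Of the atypical dual-specificity phosphatases, smaller enzymes that mostly lack the MAP kinase docking domain, 10 of 16 were tested, 2 were lower and 0 higher. The share lower was 20%, beside 17.6% lower and 15.9% higher among all tested genes. DUSP18 was at 2.35 ± 0.0447 against 3.93 ± 0.139 CPM (log2 fold change -0.74; edgeR adjusted p = 0.00437), and it overlaps SLC35E4 on the other strand, which had a log2 fold change of -0.35 itself. Like DUSP6, DUSP18 passed the filter only through its siNC libraries (0.711 to 0.751 FPKM, against 0.437 to 0.442 in siEIF4G2). It is among the 2 genes counted as lower. STYXL1, a catalytically inactive relative, had a log2 fold change of -0.47 (edgeR adjusted p = 0.00887). DUSP3, which acts on ERK and JNK, read 32.8, 32.8 and 157 CPM in siEIF4G2 and 32.7, 32.8 and 29.6 CPM in siNC. A single library, siEIF4G2 replicate 3, was thus far above the other 5 (edgeR adjusted p = 0.193). Without that library the log2 fold change of DUSP3 went from 1.23 to 0.05.

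Upstream of the members, 14 of 23 growth factor receptors and ligands were tested, 3 of them lower and 1 higher. These are 21.4% and 7.14%, beside 17.6% and 15.9% of all tested genes. FGF2, a ligand of FGF receptors, was at 72.7 ± 3.06 against 149.9 ± 2.47 CPM (log2 fold change -1.04, SE 0.05; edgeR adjusted p = 0.000219), and NUDT6 on the other strand, which overlaps it, had a log2 fold change of -0.10. PDGFRB, a receptor, had a log2 fold change of -1.19 (edgeR adjusted p = 0.00302). MET, the receptor for hepatocyte growth factor, was called at a log2 fold change of -0.18 (edgeR adjusted p = 0.0374) and the ligand TGFA at 0.47 (edgeR adjusted p = 0.0251). Leaving out 1 library ended the log2 fold change of MET as a call for every library but siEIF4G2 replicate 1 (0.0727 to 0.0979), and that of TGFA for every library (0.0506 to 0.0714). EGFR read 259 ± 16.7 against 253 ± 4.22 CPM, with a log2 fold change of 0.03 (95% interval -0.10 to 0.17).

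Of other inhibitors of receptor and RAS signalling, 13 of 16 were tested, 0 were lower and 1 was higher (7.69%, beside 15.9% of all tested genes). That gene was RASA1, a GTPase-activating protein of RAS (30.5 ± 0.766 against 23.5 ± 1.004 CPM; log2 fold change 0.37; edgeR adjusted p = 0.00597), whose interval overlaps CCNH. PEBP1, which binds RAF, had a log2 fold change of -0.01 (95% interval -0.12 to 0.10). CAV1, the caveolin that holds receptors in membrane pits, read 93.2, 56.2 and 96.1 CPM in siEIF4G2 and 95.9, 50.7 and 87.6 CPM in siNC, with replicate 2 lowest in both groups.

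For the cascade from RAS to ERK, all 21 genes were tested, 0 were lower and 4 were higher. The share higher was 19.0%, near the 15.9% of all tested genes, while 17.6% of all tested genes were lower. MAP2K2, an ERK-activating MEK kinase, was near the threshold: the log2 fold change of MAP2K2 was -0.19 (edgeR adjusted p = 0.051), and DESeq2 called it lower (adjusted p = 0.0366). PTPN11, a tyrosine phosphatase that promotes RAS activation, went from 186 ± 6.21 to 310 ± 14.9 CPM (log2 fold change 0.73, SE 0.05; edgeR adjusted p = 0.00047), and its interval overlaps the abundant RPL6, whose log2 fold change was 0.19. NRAS went from 96.6 ± 1.13 to 125 ± 3.92 CPM (log2 fold change 0.37; edgeR adjusted p = 0.00193). SOS1, a RAS exchange factor, was higher by 0.32 on the log2 scale (edgeR adjusted p = 0.0213). The log2 fold change of SOS1 missed the threshold when siEIF4G2 replicate 3, or siNC replicate 1 or 2, was left out (0.0544 to 0.073). MAPK3, an ERK kinase named after its value was seen, read 0.001 on the same scale and did not pass (edgeR adjusted p = 0.988).

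In the JNK and p38 arms, 16 of 18 genes were tested, 7 were higher and 1 lower. These are 43.8% and 6.25%, beside 15.9% higher and 17.6% lower among all tested genes. MAPK9, a JNK kinase, went from 62.3 ± 0.767 to 91.4 ± 1.44 CPM (log2 fold change 0.55, SE 0.04; edgeR adjusted p = 0.000501). MAP3K4 and MAP3K5, kinases at the head of these arms, had log2 fold changes of 0.56 and 0.50, and MAPKAPK2, a kinase activated by p38, 0.27. The lower gene was MAPK11, a p38 kinase (log2 fold change -0.64; edgeR adjusted p = 0.00994), named after its value was seen. MAPK14, also a p38 kinase and also named after its values were seen, varied widely between replicates. It read 50.8, 18.7 and 18.8 CPM in siEIF4G2 and 65.2, 28.6 and 65.4 CPM in siNC. MAPK14 was not called (log2 fold change -0.85; edgeR adjusted p = 0.246). The median log2 fold change of this list was 0.21, against 0.01 over all tested genes.

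Of 22 other genes known to be induced by ERK, 17 were tested, 8 were lower and 1 higher, or 47.1% lower beside 17.6% of all tested genes. The median log2 fold change of the list was -0.37. The 8 genes not called, named after their values were seen, went both ways. Their log2 fold changes were -0.91 (IER2), -0.48 (FOS), -0.24 (SPHK1), -0.16 (FOSL1), -0.11 (ETV1), 0.04 (KLF6), 0.12 (KLF10) and 0.40 (EGR1). Their edgeR adjusted p lay between 0.0599 and 0.933. LIF, a cytokine, read 14.3, 13.0 and 12.6 CPM in siEIF4G2 and 24.8, 26.3 and 29.1 CPM in siNC (log2 fold change -1.01, SE 0.09; edgeR adjusted p = 0.000896). ETV5, an ETS factor that follows ERK activity, read 8.43, 7.43 and 9.53 CPM against 16.1, 14.8 and 15.7 CPM (log2 fold change -0.87, SE 0.12; edgeR adjusted p = 0.00296). EPHA2, an ephrin receptor, went from 154 ± 7.97 to 92.4 ± 1.74 CPM, and JUNB, an AP-1 subunit, from 135 ± 3.13 to 86.0 ± 3.50 CPM. CCND1, cyclin D1, and IER3 fell by 0.35 and 0.40 on the log2 scale (edgeR adjusted p = 0.00481 and 0.00632). The gene called higher was ETV4, a close relative of ETV5, with a log2 fold change of 0.40 (edgeR adjusted p = 0.0349), named after its value was seen. Its interval overlaps DHX8, with 6882 counts per library on average against 614 for ETV4, and its call was lost without siEIF4G2 replicate 1 or 2, or without any 1 siNC library, which leaves 0 genes higher in the list.

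All 9 transcription factors downstream of MAP kinases were tested, 0 lower and 4 higher, or 44.4% higher beside 15.9% of all tested genes. SRF, which with its ETS partners drives immediate early genes, went from 57.9 ± 3.44 to 78.6 ± 1.53 CPM (log2 fold change 0.44, SE 0.06; edgeR adjusted p = 0.00287). The partners ELK3 and ELK4 had log2 fold changes of 0.49 and 0.60, and ATF1, which binds cyclic AMP response elements, 0.65 (edgeR adjusted p = 0.00417, 0.00406 and 0.0015). CREB1, named after its values were seen, pointed the other way and was not called (log2 fold change -0.70; edgeR adjusted p = 0.0817). It read 14.1, 10.7 and 13.1 CPM in siEIF4G2 and 13.2, 24.2 and 24.2 CPM in siNC, so the groups overlapped. Among the genes whose deposited KEGG annotation names the MAPK signaling pathway, 188 were tested, 38 were lower and 29 higher. Without the 6 members in that annotation, 35 of 182 were lower, or 19.2%, near the 17.6% of all tested genes. The deposited Gene Ontology term for inactivation of MAPK activity, looked up after the data were seen, covers 22 tested genes including 8 members. Of the other 14, 3 were lower and 2 higher. The share lower was 21.4%, beside 17.6% of all tested genes.

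**Figure D4:**
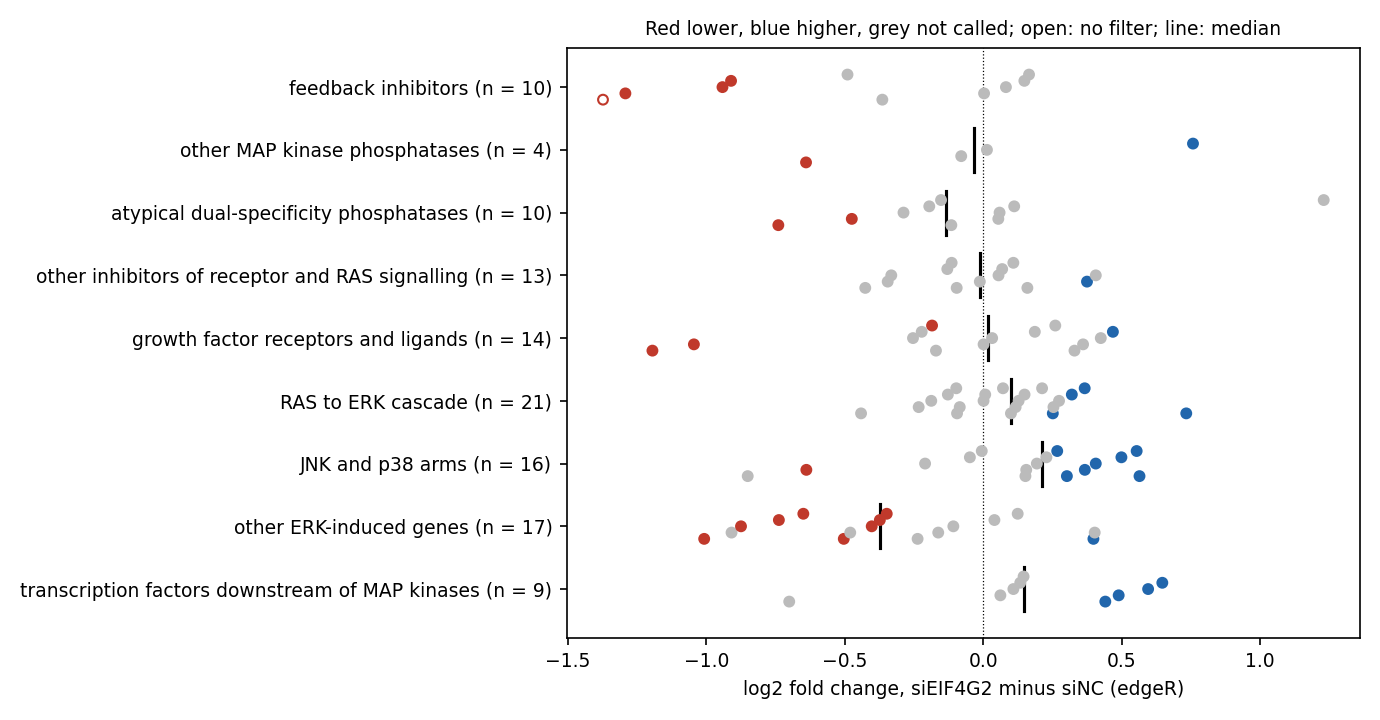
Log2 fold change of each gene, siEIF4G2 minus siNC, from edgeR (horizontal axis) for the 10 members and 8 lists of the pathway, with a line at the median of each list but not of the members. Red marks genes called lower, blue higher and grey not called, the open circle is SPRY4, and other ERK-induced genes hold 8 red points and JNK and p38 arms 7 blue ones.

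The genes most like each member were sought among 9007 genes with a mean of at least 2 FPKM, by the root mean square difference in log2 CPM centred on the siNC mean over the 6 libraries. For DUSP1 these were SCD (difference 0.0211), TRIM62 (0.0323) and SQSTM1 (0.038). For DUSP4 they were SLC12A4 (0.044), CFB (0.0569) and IRAK2 (0.0685), and for DUSP5 CAVIN3 (0.0581), CORO6 (0.0587) and ENO3 (0.0599). SPRY4 was nearest to ANO2 (0.0564), TBC1D2 (0.0827) and OLFML1 (0.089). None of these genes belongs to the pathway lists. Those lists hold at most 104 of the 9007 genes searched, so that absence says little. The measure follows both the fold change and the deviations of single libraries.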

How the data were processed

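Poly(A) RNA was sequenced in 6 libraries, 3 per group, grouped by their titles. HISAT2 2.0 and StringTie 1.3.0 are listed, per the submitters' processing notes, with no role. Genome build, annotation and strand setting were not given in the sources used here. Deposited counts are whole numbers and were treated as estimated counts already rounded by the authors. The deposited FPKM values are the authors' own, with 0.0001 listed where the count is 0. Gene intervals are as deposited. For 7 of 8 members with a RefSeq window, a GRCh38.p14 start site falls on the deposited 5′ end.

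From these, edgeR 4.0.16 (quasi-likelihood test, TMM, group only, library size the total count; R 4.3.3) was fitted over the 13748 genes that reached 0.5 FPKM in 3 or more libraries. P-values are two-sided and adjusted by Benjamini-Hochberg over all tested genes, and a standard error is the size of the log2 fold change divided by the root of F. The fit was tested on simulated counts. limma 3.58.1 and DESeq2 1.42.0 served as alternatives. Figures used matplotlib 3.10.9. The members and lists were chosen with earlier results of these data known. Named genes were the members, EIF4G2, up to 4 per list by level and up to 4 by p, and the 3 nearest genes per member. Some genes the rule names are not reported here.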

Additional observations from a re-analysis of the deposited data

How the results depend on the processing

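DUSP1, DUSP4 and DUSP5 were called lower in each of 16 alternatives, with adjusted p at most 0.0138, and SPRY4 in each of 13. These were other scalings, filters and tools, summed rows, a replicate block, and leaving out each library. SPRY4's log2 fold change lay between -1.41 and -0.22, the latter with limma on log2(FPKM + 1), a scale that compresses low genes. DUSP6 was called in none of its 12 alternatives (adjusted p 0.0577 to 0.15); without any 1 siNC library, or with the filter of at least 1 FPKM in all libraries, it was not tested. DUSP10 was called in 1 of 16 and DUSP7, SPRY2, SPRED1 and SPRED2 in 0, SPRED2 being negative in 4. The count of members lower was 3 or 4 throughout, and of members higher 0. Over all tested genes, the count of genes lower was 1717 to 2774 and of genes higher 1517 to 2569. With the replicate number as a block, 3 members were lower and 0 higher, with 2010 genes lower and 1726 genes higher; EIF4G2 read -2.43 on the log2 scale. Deviations of same-numbered libraries correlated at 0.001, 0.032 and 0.05 across genes, and not every library matched its own number best, so the numbers were not treated as pairs. The block left the log2 fold change of MET (adjusted p = 0.0762) and the log2 fold change of TGFA (0.0667) uncalled, and called the log2 fold change of SHC1 lower (0.0354). With it, 0 other ERK-induced genes were higher in place of ETV4. No other call of a named gene changed. That statement does not cover CREB1, MAPK14, FOS, FOSL1, IER2, EGR1, SPHK1, ETV1, KLF6 and KLF10. Of 320 list counts, 285 stayed within 1.5 times and 35 did not. Receptors and ligands higher went from 1 to between 0 and 3 under 11 alternatives, other ERK-induced genes higher from 1 to 0 under 7, and atypical phosphatases lower from 2 to 1 without any 1 siNC library or with the strict filter. RAS to ERK genes higher went from 4 to 2 without siEIF4G2 replicate 3 or siNC replicate 2, and lower from 0 to 1 under 3. Other inhibitors higher went to 2 under 2, JNK and p38 genes lower to 2 without siEIF4G2 replicate 1, transcription factors lower to 1 under 2, and the Gene Ontology genes higher from 2 to 1 without any 1 siNC library. Depth limits SPRY4 and DUSP6 most, at 55 to 200 counts per library.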
